A study of Mus musculus with 6 samples.

Results

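The adaptors that carry the signal of a TNF receptor, and the inhibitors that shut the signal off, were followed in 889 cells, a murine lung cancer line of C57BL/6 origin. The set holds 10 genes of the 34745 in each count file, taken by gene name: Tradd, Ripk1, Traf1, Traf2, Traf3, Tnfaip3, Tnip1, Cyld, Zc3h12a and Tnfaip2. Bulk RNA was sequenced from 3 libraries of cells with Cas9 and a control sgRNA (sg-con) and from 3 libraries of cells with Cas9 and a sgRNA against kiaa1522 (sg-kiaa1522). Both groups thus carry Cas9 and a guide, both are the same line, and neither the labels nor the methods name a TNFα treatment for these libraries. Which of the study's guides the sequenced cells carried, and whether the 3 libraries of a group came from separate cultures, is not stated, so the p-values measure the spread between these libraries, which may be technical.

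When TNFα binds TNFR1, the adaptor TRADD and the kinase RIPK1 are recruited to the receptor, and TRAF2 brings in the cIAP ubiquitin ligases. The ubiquitin chains built there hold the TAK1 and IKK kinases, which release NFκB to the nucleus. NFκB then switches on genes that end the response, among them Tnfaip3 and Tnip1, so levels of these transcripts are commonly read as a trace of earlier NFκB activity. Of the 10 genes, Tnfaip3, Tnip1, Traf1, Zc3h12a and Tnfaip2 are classed here as NFκB-inducible, and the other 5 as adaptors and regulators that are mostly held at a steady level.

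The targeted gene, listed as C77080 in the files, was higher in the libraries labelled sg-kiaa1522. Its counts were 2214, 2404 and 2064 in the sg-con libraries and 2554, 3726 and 3667 in the libraries labelled sg-kiaa1522. TMM-normalized counts, scaled to the same library total (CPM), were 127 ± 2.93 (SD, n = 3) and 210 ± 6.38 (SD, n = 3), a log2 fold change of 0.73 (SE 0.0569, adjusted p = 9.1e-05, edgeR's quasi-likelihood test). A Cas9 cut can disrupt a protein without lowering its mRNA, so this value does not show whether the gene was disrupted, and every direction below is that of the libraries labelled sg-kiaa1522 relative to sg-con.

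Library totals lay between 12220001 and 18609376 counts, the lowest count of any of the 10 genes in a library was 125 (Zc3h12a), and 3 counts, the limit that a count of 0 allows, correspond to between 0.162 and 0.247 CPM. The epithelial keratins Krt8, Krt18 and Krt19 and the cadherin Cdh1 were present, while Epcam had 0 counts in all 6 libraries. Summed over the 5 epithelial markers, CPM ranged from 3810 to 4575 in sg-con and from 3218 to 3498 in the libraries labelled sg-kiaa1522. Krt18 and Krt8 made up most of that sum, at 2124 and 1282 CPM on average in sg-con. Cdh1 fell from 56.4 to 20.6 CPM on average, a log2 fold change of -1.45 (adjusted p = 5.1e-05, edgeR's quasi-likelihood test). Krt19 fell by 0.73 on the log2 scale (adjusted p = 0.0012), and Krt8 and Krt18 fell less (-0.40 and -0.19). The 5 fibroblast markers summed to between 425 and 442 CPM against 145 to 164 CPM, a sum carried by Col1a2 (424 against 154 CPM on average), while Col3a1, Pdgfra and Dcn had at most 7 counts in any library. The 6 leukocyte markers summed to between 1.40 and 2.12 CPM against 10.3 to 13.0 CPM. Cd68, a lysosomal protein of macrophages, carried that rise alone, with 21, 23 and 19 counts against 122, 235 and 186. The pan-leukocyte marker Ptprc measured 0.406 against 0.103 CPM, and the other 4 were at or under 3 counts in every library. The 6 alveolar markers summed to between 42.2 and 85.3 CPM against 23.6 to 57.0 CPM, held mainly by Nkx2-1 and Sftpb. Nkx2-1 differed within each group, with 55.7, 59.1 and 13.6 CPM in sg-con and 10.9, 9.49 and 39.5 CPM in the libraries labelled sg-kiaa1522 (adjusted p = 0.21). Sftpb was called lower, at -0.67 (adjusted p = 0.012). The 4 endothelial markers summed to between 0.809 and 1.66 CPM against 0.942 to 1.24 CPM. The part of these markers in the results below was not tested, and in bulk RNA fewer cells that express a gene and less RNA per cell cannot be told apart.

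All 10 genes passed the filter of more than 500 counts over the 6 libraries, as did 10046 genes in all. Tnfaip2, Traf1 and Ripk1 rose in the libraries labelled sg-kiaa1522, Zc3h12a and Traf2 fell, and the other 5 did not pass an adjusted p of 0.05. This comparison moved much of the transcriptome, since 26.3% of all tested genes rose and 26.3% fell (52.5% either way), so the 3 rises and 2 falls among the 10 lie near the background. The libraries of the groups did not overlap in 3 genes that were higher (30.6% of all tested genes) and 2 that were lower (31.1%), 5 of 10 in all beside 61.7%. With a log2 fold change of at least 1 also required, 1 gene of the set rose (Tnfaip2) and 1 fell (Zc3h12a), where 2.74% and 4.34% of all tested genes did. The median log2 fold change was 0.11 over the 10 genes and -0.0067 over all tested genes, and the median size of the change was 0.46 and 0.32. Of the 5 NFκB-inducible genes 2 rose and 1 fell, and of the other 5 genes 1 rose and 1 fell, so neither class moved in a single direction.

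**Figure D1:**
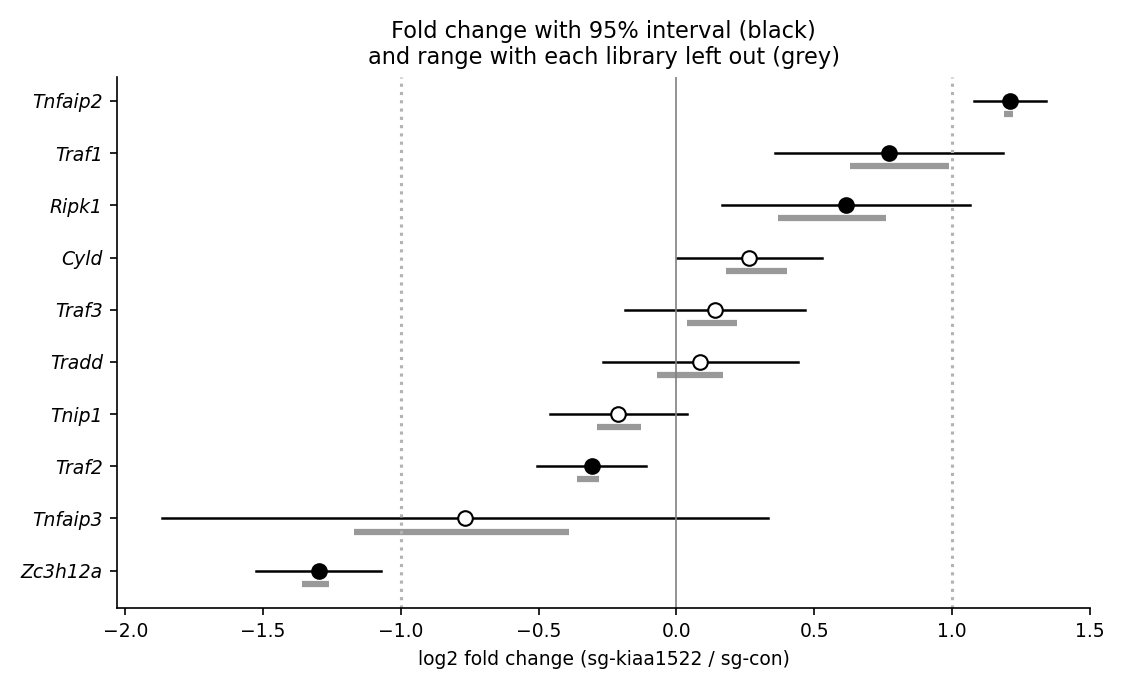
The log2 fold change of each of the 10 genes in the libraries labelled sg-kiaa1522 relative to sg-con, with its 95% confidence interval from edgeR's quasi-likelihood fit (black) and its range with each library left out in turn (grey), and dotted lines at -1 and 1. Filled points passed an adjusted p of 0.05, and the interval of Tnfaip3 (-1.87 to 0.33) is the widest of the 10.

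The promoters were searched for the NFκB consensus, since the set holds NFκB-inducible genes. For 9 of the 10 genes RefSeq (GRCm38.p6) gives windows from 250 bases before to 50 bases after a start site, 11 windows in all. The κB consensus, in its form of 10 bases read on both strands, matched the windows of Tnfaip3, Tnip1, Traf3 and Cyld, 4 of 9 genes, where 5.14% of all 27025 symbols with a window have a match. These 4 were all among the genes that did not pass the threshold, and no strict match lay in the windows of Tnfaip2, Traf1, Zc3h12a, Traf2 or Ripk1. That split rests partly on calls near the threshold. Tnfaip3, Tnip1 and Cyld each passed with a single sg-con library left out, and Traf2 and Ripk1 lost their calls in the same way. Sites outside the windows were not searched, and whether matches go with calls was not tested. A looser form, with any base at its sixth position and chosen after the data were seen, added Tnfaip2, with 9.55% of all symbols as its background. The matches of the strict form are printed with 30 bases each, 5′ to 3′ on the gene's strand, with the match in capitals. In Tnfaip3 they lie on the minus strand at chr10:19015516-19015545 and chr10:19015403-19015432, in Tnip1 on the minus strand at chr11:54962978-54963007, in Traf3 on the plus strand at chr12:111166350-111166379, and in Cyld on the plus strand at chr8:88696863-88696892.
Tnfaip3, bases -125 to -116 from the start: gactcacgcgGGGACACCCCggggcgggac
Tnfaip3, bases -12 to -3: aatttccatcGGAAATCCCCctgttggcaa
Tnip1, bases -58 to -47: tccatcatgGGGGAATTCCCCtcctgcctc
Traf3, bases -10 to -1: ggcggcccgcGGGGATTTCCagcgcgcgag
Cyld, bases -155 to -146: ttgaccgagcGGAAAGTCCCttcagccagc
The run of capitals in Tnip1 holds overlapping matches. Distances are from the RefSeq start. GENCODE M21 starts Tnfaip3 further upstream, at 19015657, so by that annotation both of its matches lie within the gene.

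The promoters of 2 genes that passed the threshold and moved in opposite directions are shown with 250 bases before the start. The capitals mark the GC box GGGCGG, on either strand, which was found in 8 of the 9 genes and in 38.2% of all symbols. Zc3h12a lies on the minus strand at chr4:125127882-125128131 and Traf1 on the minus strand at chr2:34961773-34962022.
Zc3h12a: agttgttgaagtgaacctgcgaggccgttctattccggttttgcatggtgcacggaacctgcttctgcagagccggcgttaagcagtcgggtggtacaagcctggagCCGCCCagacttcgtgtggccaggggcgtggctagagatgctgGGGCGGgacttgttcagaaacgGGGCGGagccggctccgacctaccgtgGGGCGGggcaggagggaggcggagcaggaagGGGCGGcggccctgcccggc
Traf1: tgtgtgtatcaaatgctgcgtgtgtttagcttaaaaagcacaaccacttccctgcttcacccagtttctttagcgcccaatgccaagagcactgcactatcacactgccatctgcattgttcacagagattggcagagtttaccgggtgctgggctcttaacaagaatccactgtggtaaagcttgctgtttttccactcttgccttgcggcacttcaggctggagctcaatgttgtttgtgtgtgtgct
The Traf1 window was the exception among the 9 genes for the GC box, and Tnfaip2 and Ripk1, which also rose, both hold it. The 2 printed promoters were picked by their calls and are a description with no test. The AP-1 site TGANTCA, read on both strands, was found in Tnfaip3 alone of the 9, where 8.97% of all symbols have it.

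Tradd and Ripk1 stand closest to the receptor. Positions are those of GENCODE M21 on GRCm38. Tradd (ENSMUSG00000031887, chr8:105258286-105264609, minus strand), the adaptor that binds the death domain of TNFR1, measured 16.0, 22.0 and 22.6 CPM in sg-con and 22.0, 23.1 and 19.1 CPM in the libraries labelled sg-kiaa1522. The groups overlapped, and the log2 fold change was 0.09 (SE 0.152, adjusted p = 0.66). Without sg-con replicate 1, the low library, it was -0.07 (adjusted p = 0.62), and over the 12 alternatives the adjusted p lay between 0.43 and 0.91.

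Ripk1 (ENSMUSG00000021408, chr13:34002363-34037147, plus strand), the kinase that serves as a ubiquitinated scaffold in NFκB signaling and can also start cell death, rose 1.53-fold. It measured 22.9, 19.4 and 19.6 CPM in sg-con and 42.0, 25.2 and 28.0 CPM in the libraries labelled sg-kiaa1522. All 3 libraries labelled sg-kiaa1522 lay above all 3 sg-con libraries, but replicate 1 stood well above the other two. Its log2 fold change was 0.62 (SE 0.193, 95% confidence interval 0.17 to 1.07, adjusted p = 0.03). Without that high library it was 0.37 (adjusted p = 0.045). The call was lost without sg-con replicate 2 (log2 fold change 0.56, adjusted p = 0.09) and without sg-con replicate 3 (log2 fold change 0.58, adjusted p = 0.08), and over the 12 alternatives the adjusted p ranged from 0.0053 to 0.09. Of all tested genes, 3.78% had a larger ratio of highest to lowest library in the group labelled sg-kiaa1522. Exons of Ripk1 share 241 bases with Serpinb6a on the opposite strand and 511 bases with Gm17084 on the same strand, and whether the counting used strand is not given in the sources used here.

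Of the 3 TRAF genes, Traf2 fell, Traf1 rose and Traf3 did not pass, where 26.3% of all tested genes rose and 26.3% fell. Traf2 (ENSMUSG00000026942, chr2:25517982-25546940, minus strand), the ubiquitin ligase adaptor that is made constitutively, measured 31.6, 34.1 and 34.7 CPM in sg-con and 28.7, 25.9 and 26.6 CPM in the libraries labelled sg-kiaa1522. The groups did not overlap, and Traf2 fell by 0.31 on the log2 scale (SE 0.0847, adjusted p = 0.018). The size of the change was about the same whichever library was left out, -0.36 to -0.28, but the call was lost without sg-con replicate 2 (-0.30, adjusted p = 0.056) or 3 (-0.29, adjusted p = 0.053) and without sg-kiaa1522 replicate 2 (-0.28, adjusted p = 0.069) or 3 (-0.30, adjusted p = 0.069). Its adjusted p over the 12 alternatives ranged from 0.0095 to 0.069.

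Traf1 (ENSMUSG00000026875, chr2:34941750-34961772, minus strand), an NFκB-inducible relative that pairs with TRAF2 and lacks its RING domain, rose 1.71-fold. It measured 9.76, 15.6 and 10.9 CPM in sg-con and 20.8, 21.9 and 19.2 CPM in the libraries labelled sg-kiaa1522. The groups did not overlap, and the log2 fold change was 0.77 (SE 0.178, 95% confidence interval 0.36 to 1.19, adjusted p = 0.0085). It kept its call under all 12 alternatives, with adjusted p between 0.00041 and 0.032 and log2 fold changes from 0.63 to 0.99.

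Traf3 (ENSMUSG00000021277, chr12:111166370-111267153, plus strand), which keeps the kinase NIK low in unstimulated cells, measured 11.0, 12.0 and 9.36 CPM in sg-con and 11.9, 10.6 and 13.3 CPM in the libraries labelled sg-kiaa1522. These ranges overlapped, with a log2 fold change of 0.14 (SE 0.139, 95% confidence interval -0.18 to 0.47, adjusted p = 0.42). Leaving out single libraries moved it between 0.04 (without sg-con replicate 3) and 0.22 (without sg-kiaa1522 replicate 2), with an adjusted p of 0.28 to 0.82 over the 12 alternatives.

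Since Traf1 and Traf2 moved in opposite directions, their ratio per exon length was taken within each library, a comparison chosen after the data were seen. It was 0.179, 0.264 and 0.181 in sg-con and 0.419, 0.490 and 0.417 in the libraries labelled sg-kiaa1522. The mean ratio was 0.208 ± 0.0487 (SD, n = 3) against 0.442 ± 0.0413 (SD, n = 3). Since the pair was picked for its opposite changes, the ratio is a description with no test. By mean transcript length the ratio was 0.625 ± 0.146 (SD, n = 3) against 1.33 ± 0.124 (SD, n = 3). In sg-con Traf1 thus lay below Traf2 by either length. In the libraries labelled sg-kiaa1522 whether it lay below or above Traf2 depended on the length used.

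**Figure D2:**
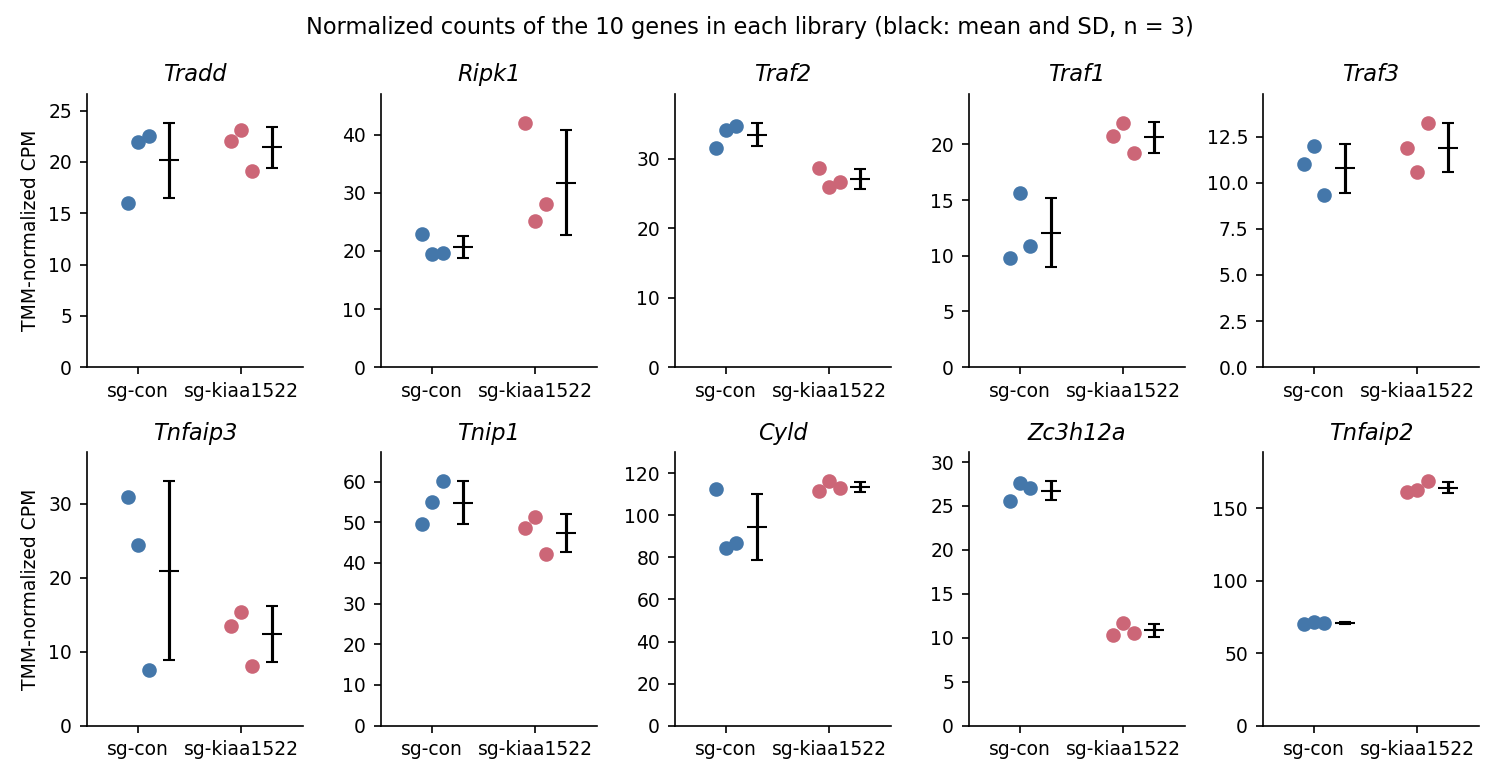
TMM-normalized CPM of the 10 genes in each library of sg-con and of sg-kiaa1522, with coloured points for libraries and black bars for the group mean and SD (n = 3). Each panel has its own axis from 0, and the low sg-con library of Tnfaip3 (7.56 CPM) and the high sg-kiaa1522 library of Ripk1 (42.0 CPM) stand apart within their groups.

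Among the inhibitors, Tnfaip3 had the least uniform libraries. The gene (ENSMUSG00000019850, chr10:19000910-19015657, minus strand) encodes A20, the ubiquitin-editing enzyme that ends NFκB signaling, and is one of the best known direct NFκB targets. It measured 30.9, 24.4 and 7.56 CPM in sg-con and 13.5, 15.4 and 8.13 CPM in the libraries labelled sg-kiaa1522. The lowest of all 6 values was an sg-con library, replicate 3, and the groups overlapped through it. In the fit, the log2 fold change was -0.77 with an SE of 0.473 and a 95% confidence interval of -1.87 to 0.33 (adjusted p = 0.21). Without that library it was -1.17 (adjusted p = 0.011), and without sg-con replicate 1, the highest library, it was -0.39 (adjusted p = 0.52). These were the ends of the range of adjusted p over the 12 alternatives. The highest sg-con library held 4.09 times the lowest, a ratio exceeded by 0.547% of all tested genes. In sg-con replicate 3, 40 tested genes (0.398%) lay under 0.5 of both other sg-con libraries.

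Tnip1 (ENSMUSG00000020400, chr11:54910785-54962917, minus strand), which encodes the A20-binding protein ABIN1, measured 49.6, 54.9 and 60.1 CPM in sg-con and 48.5, 51.3 and 42.3 CPM in the libraries labelled sg-kiaa1522. The ranges overlapped, and the log2 fold change was -0.21 (SE 0.107, adjusted p = 0.14). Without sg-con replicate 1 it was -0.29 (adjusted p = 0.048), and the 12 alternatives spanned adjusted p from 0.048 to 0.37.

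Cyld (ENSMUSG00000036712, chr8:88697028-88751945, plus strand), a deubiquitinase that trims the chains around RIPK1 and is a tumour suppressor, measured 113, 84.3 and 86.7 CPM in sg-con and 111, 116 and 113 CPM in the libraries labelled sg-kiaa1522. Only sg-con replicate 1 reached the level of the other group. Cyld thus had a log2 fold change of 0.26 (SE 0.113, 95% confidence interval 0.0021 to 0.53), which did not pass after adjustment (adjusted p = 0.083). Without sg-con replicate 1 it was 0.40 (adjusted p = 0.0011), and over the 12 alternatives the adjusted p ranged from 0.0011 to 0.25.

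Zc3h12a (ENSMUSG00000042677, chr4:125118423-125127840, minus strand), the endoribonuclease Regnase-1 that degrades inflammatory mRNAs, was the gene of the set that fell most among those that passed. It measured 25.6, 27.6 and 27.1 CPM in sg-con and 10.3, 11.7 and 10.5 CPM in the libraries labelled sg-kiaa1522. The libraries of each group lay close together and far from the other group, and the mean was 2.46-fold lower. On the log2 scale the change was -1.30 (SE 0.0973, 95% confidence interval -1.53 to -1.07, adjusted p = 8e-05). It kept its call under all 12 alternatives, from -1.36 to -1.26, with adjusted p between 1.6e-18 and 0.0013.

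Tnfaip2 (ENSMUSG00000021281), an NFκB- and TNF-inducible gene related to the exocyst subunit Sec6 and linked to membrane protrusions, rose most. It measured 70.0, 71.7 and 71.0 CPM in sg-con and 161, 163 and 168 CPM in the libraries labelled sg-kiaa1522. The spread within each group was small beside the 2.31-fold difference between them. The log2 fold change was 1.21 (SE 0.0565, 95% confidence interval 1.08 to 1.34, adjusted p = 1.5e-05), larger than that of 98.1% of all tested genes. Under the 12 alternatives it lay between 1.19 and 1.22, with adjusted p between 2.8e-55 and 0.00083. Its exons share 314 bases with Gm40578 on the opposite strand.

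Tnfaip2 lies on the plus strand of chromosome 12 of GRCm38 at chr12:111442469-111455018, and 13 other tested genes have their nearest edge within 500 kb. Of these 13, 6 rose and 2 fell, where 26.3% of all tested genes rose and 26.3% fell. Their median log2 fold change was 0.20, where the median of the 349 tested genes of the chromosome was 0.12. Exoc3l4, a relative of Tnfaip2 in the same Sec6-like family, ends 10791 bp before it on the same strand and was picked after its values were seen. It measured 22.5, 27.0 and 30.2 CPM in sg-con and 8.16, 7.69 and 8.48 CPM in the libraries labelled sg-kiaa1522. Its log2 fold change was -1.71 (SE 0.133, adjusted p = 8.9e-05), and 0.836% of tested genes had a lower one. The neighbours thus moved in opposite directions, with a ratio of Tnfaip2 to Exoc3l4 per exon length of 3.06 ± 0.435 (SD, n = 3) in sg-con and 23.0 ± 0.873 (SD, n = 3) in the libraries labelled sg-kiaa1522, or 2.34 and 17.6 by mean transcript length. Traf3, also of the set, lies 175316 bp from Tnfaip2 and did not pass.

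**Figure D3:**
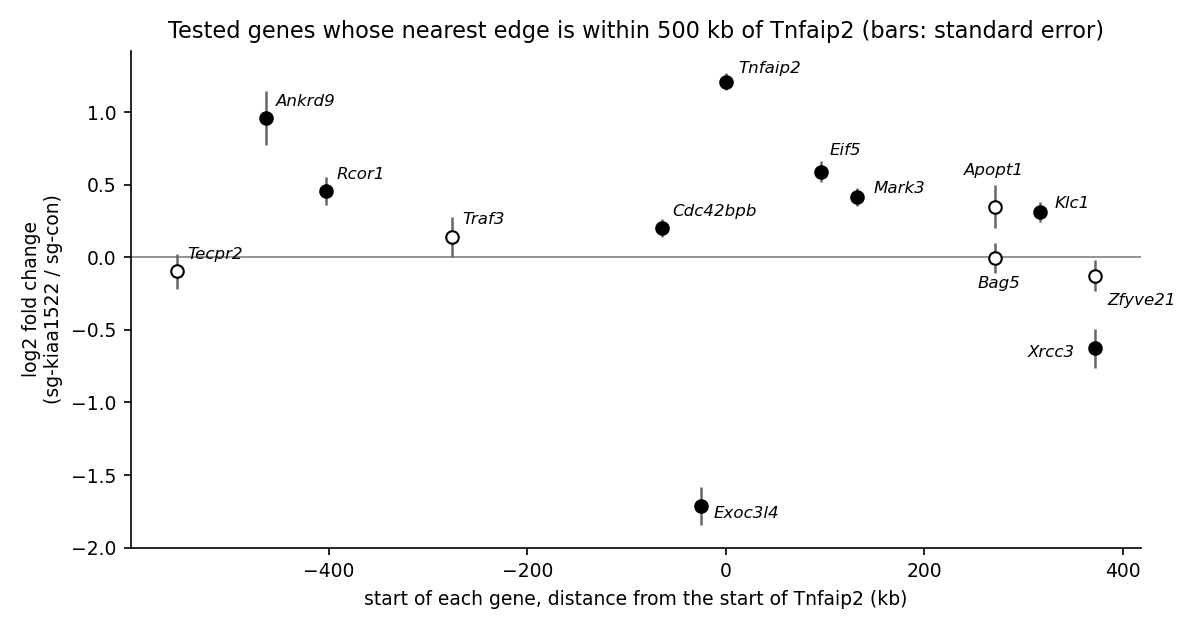
The log2 fold change of Tnfaip2 and the 13 tested genes around it against the distance of each start from that of Tnfaip2 in kb, with bars for the standard error and filled points for genes that passed an adjusted p of 0.05. Tnfaip2 is the highest point at 1.21 and Exoc3l4, the adjacent tested gene upstream, the lowest at -1.71.

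To compare levels between genes, counts were divided by exon length and scaled to the same total in each library (TPM). In sg-con the order of mean TPM was Tnip1 (39.7), Tnfaip2 (36.5), Tradd (27.6), Zc3h12a (23.8), Cyld (19.3), Traf2 (16.8), Tnfaip3 (7.48), Ripk1 (6.36), Traf3 (3.76) and Traf1 (3.50). Neighbours in this order overlapped between libraries except at the steps from Tnfaip2 to Tradd, from Traf2 to Tnfaip3 and from Ripk1 to Traf3. In the libraries labelled sg-kiaa1522 Tnfaip2 came first at a mean of 90.0 TPM, with no overlap with Tnip1 at 36.6 TPM. Zc3h12a stood at 10.3 TPM there, beside Ripk1 at 10.4 TPM, and Traf1 at 6.39 TPM stood above Tnfaip3 at 4.66 TPM and Traf3 at 4.43 TPM. With the mean transcript length in place of the union of exons Tnfaip2 was first in sg-con too, at 59.9 TPM. In the libraries labelled sg-kiaa1522 that length put Ripk1 at 15.4 TPM and Zc3h12a at 8.76 TPM, and moved Traf1 from place 8 to place 5 of the 10, at 15.9 TPM, so the order within the lower levels rests on the length used.

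**Figure D4:**
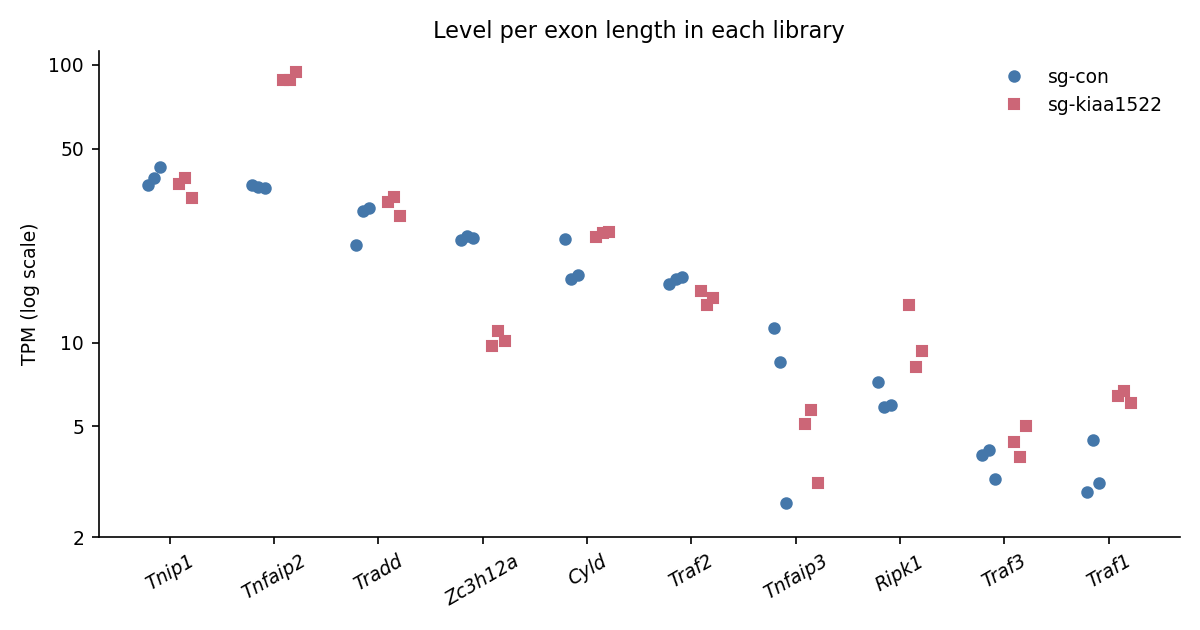
TPM of the 10 genes per library, on a log scale, for sg-con and sg-kiaa1522, ordered by the sg-con mean. Tnfaip2 and Zc3h12a show the clearest separation between groups, and Tnfaip3 the widest spread within sg-con.

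The other genes of the pathway were followed in 10 lists of 75 genes, of which 63 were tested. Of these, 17 rose (27.0%) and 10 fell (15.9%) in the libraries labelled sg-kiaa1522, and their median log2 fold change was 0.017, beside -0.0067 for all tested genes. Of all tested genes 26.3% rose and 26.3% fell, so the share of rises was near the background and the share of falls was lower. With the size threshold 2 rose and 2 fell, where 2.74% and 4.34% of all tested genes did.

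Of the ligands and receptors, 0 of 3 tested genes passed by edgeR's quasi-likelihood test. Tnf itself had 0, 0 and 3 counts in sg-con and 0, 2 and 0 in the libraries labelled sg-kiaa1522, at or under the limit of 3 counts, so a difference in the cytokine's own mRNA was not detectable at this depth. Tnfrsf1a, which encodes TNFR1, measured 147 ± 3.4 CPM (SD, n = 3) in sg-con and 147 ± 3.17 CPM (SD, n = 3) in the libraries labelled sg-kiaa1522, with log2 fold changes between -0.03 and 0.02 under the 12 alternatives. Tnfrsf1b, which encodes TNFR2, was at a log2 fold change of -0.12 (SE 0.0924, adjusted p = 0.3).

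In the lists between the receptor and IKK, counts stand beside 26.3% of all tested genes in each direction. Here 2 of 4 other TRAF genes rose, and Traf6, the adaptor of interleukin-1 and Toll-like receptors, had the larger log2 fold change (0.33, adjusted p = 0.048), a call lost without sg-con replicate 2 or 3 or sg-kiaa1522 replicate 1 or 3. Library-size scaling (adjusted p = 0.055) and the replicate block (adjusted p = 0.075) lost it too. The other gene that rose was Traf7 (0.28, adjusted p = 0.0046), and Traf5 was called lower without sg-kiaa1522 replicate 1 (-0.57, adjusted p = 0.026). Among 9 cIAP, TAK1 and IKK genes 3 rose and 1 fell. The rises numbered 2 to 5 with single libraries left out, and 5 without sg-con replicate 1, where Tab2 (0.50, adjusted p = 0.017) and Tab3 (0.51, adjusted p = 0.0025) passed too. Chuk, which encodes IKKα, rose from 38.3 ± 6.35 to 77.8 ± 8.82 CPM (SD, n = 3 each), a log2 fold change of 1.02 (adjusted p = 0.00078), or 0.92 to 1.15 with single libraries left out, under 1 without sg-con replicate 2 or 3 or sg-kiaa1522 replicate 3. Map3k14, which encodes NIK, the kinase that TRAF3 holds down, fell by 0.71 on the log2 scale (adjusted p = 0.0012). Of 8 linear ubiquitin and deubiquitinase genes only Spata2, the bridge between CYLD and the linear ubiquitin ligase, passed, at 0.50 (adjusted p = 0.0025). Of 6 partners of A20 and ABIN 3 rose, led by Itch, a ubiquitin ligase that works with A20, at 0.60 (adjusted p = 0.0034). The remaining listed partner, Tnip3, which encodes ABIN3, was under the count filter with 19, 20 and 18 counts in sg-con and 1, 4 and 0 in the libraries labelled sg-kiaa1522, and was called lower where the filter was loosened (adjusted p = 0.0025) or dropped (adjusted p = 0.0016). Without sg-con replicate 1, 2 of the tested partners, Tnip2 and Tnfaip8, were called lower. In the TBK1 list of 4, Tank, a TRAF-binding scaffold, rose by 0.84 (adjusted p = 0.0016), and the kinase gene Ikbke fell by 0.84 (adjusted p = 0.00026) on the log2 scale. Tbkbp1, an adaptor of TBK1, was also under the filter, with 8, 8 and 11 counts against 25, 21 and 37, and was called higher under both looser settings (adjusted p = 0.0042 and 0.0027). Traf5, Traf7, Tab2, Tab3, Tnip2, Tnip3, Tnfaip8 and Tbkbp1 are named after their values were seen.

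Among 10 NFκB subunits and inhibitors 2 rose and 4 fell, where 26.3% of all tested genes moved in each direction. The p65 subunit gene Rela rose by 0.52 on the log2 scale (adjusted p = 0.0025), and Nfkb2, the p100 subunit gene, by 0.26 (adjusted p = 0.011). Nfkb1 was at -0.09 (adjusted p = 0.3) and Relb at -0.07 (adjusted p = 0.68). The 4 that fell were Nfkbie, Nfkbia and Nfkbiz, of the inhibitor family, and the coregulator Bcl3. Nfkbie went from 28.4 ± 1.14 to 10.6 ± 1.13 CPM (SD, n = 3 each), a log2 fold change of -1.42 (adjusted p = 8.5e-05). Bcl3 measured 15.4, 21.4 and 23.3 CPM in sg-con and 8.56 ± 0.361 CPM (SD, n = 3) in the libraries labelled sg-kiaa1522, a log2 fold change of -1.23 (adjusted p = 0.00077). Nfkbia and Nfkbiz were at -0.61 (adjusted p = 0.0011) and -0.78 (adjusted p = 0.00074). Nfkb1, Nfkb2, Relb, Nfkbia and Nfkbiz are named here after their values were seen.

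In the death complex list of 5 genes 1 rose and 2 fell, where, as for the RNA decay and MAPK lists, 26.3% of all tested genes rose and 26.3% fell. Mlkl, the effector of necroptosis, fell by 0.53 on the log2 scale (adjusted p = 0.0027), and its activator Ripk3 had 0 counts in all 6 libraries. Fadd, the adaptor of caspase-8, was called lower without sg-con replicate 1 (-0.52, adjusted p = 0.04). Cflar, which blocks caspase-8, was at 0.30 (adjusted p = 0.048), a call lost when any of 5 of the 6 libraries was left out. It was also lost with library-size scaling (adjusted p = 0.056) and with the replicate block (adjusted p = 0.086). The other that fell was Casp8 at -0.27 (adjusted p = 0.04), a call lost without sg-con replicate 2 or 3 or sg-kiaa1522 replicate 2 or 3 and with no filter (adjusted p between 0.015 and 0.14 over the alternatives). Of 7 RNA decay genes beside Regnase-1, 3 rose and 1 fell. Zfp36l1, an AU-rich element binding protein, rose from 41.9 ± 1.27 to 94.0 ± 7.81 CPM (SD, n = 3 each), a log2 fold change of 1.16 (adjusted p = 6.8e-05), but 55.9% of its exon length is shared with Gm26669 on the opposite strand. Its relative Zfp36 fell by 0.62 on the log2 scale (adjusted p = 0.00063). Of 7 MAPK genes 1 passed by edgeR's quasi-likelihood test, Mapk8, which encodes the kinase JNK1, at -0.27 (adjusted p = 0.046), and that call was lost under 9 of the 12 alternatives. Map2k7, a kinase that activates JNK, was at 0.71 (adjusted p = 0.089) and was called higher by DESeq2 (adjusted p = 0.024), with no filter (adjusted p = 0.046) and without sg-kiaa1522 replicate 2 (adjusted p = 0.047). Without sg-kiaa1522 replicate 1, its highest library, it was at 0.29 (adjusted p = 0.27), and 35.2% of its exon length is shared with Gm49320 on the same strand. Map3k5 was called higher without sg-con replicate 1 (0.29, adjusted p = 0.0068), and Map2k3 lower without sg-kiaa1522 replicate 1 (-0.36, adjusted p = 0.027). Ripk3, Fadd, Casp8, Map2k7, Map3k5 and Map2k3 are likewise named after their values were seen.

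**Figure D5:**
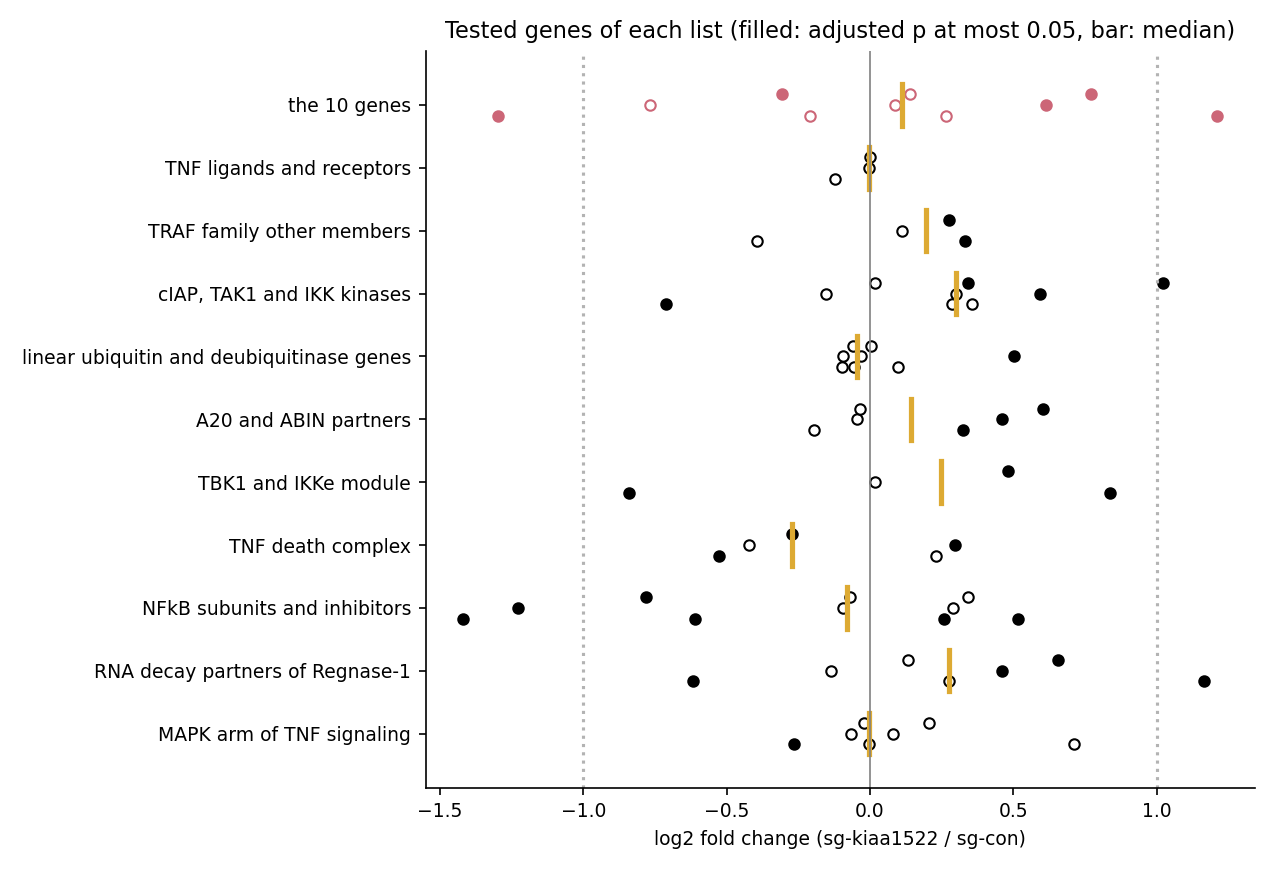
The log2 fold change of each tested gene of the 10 other lists of the pathway in the libraries labelled sg-kiaa1522 relative to sg-con, 63 genes in all, below the 10 genes of the set in red, with filled points for an adjusted p of at most 0.05, a yellow bar for the median of each list and dotted lines at -1 and 1. Of the 63 genes, 17 rose and 10 fell, with Nfkbie at -1.42 and Zfp36l1 at 1.16 as the ends of their range.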

How the data were processed

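The deposited files give raw integer counts of fragments for each Ensembl gene in 6 libraries. The authors removed adaptors and rRNA reads with Seqtk, aligned with HISAT2 2.0.4 to GRCm38 and took uniquely mapped fragments with StringTie 1.3.0 (versions from the submitters' processing notes). The annotation release is not given in the sources used here. Genes with more than 500 counts in all were tested (10046) with edgeR 4.0.16 in R 4.3.3, TMM scaling and the quasi-likelihood test without covariates, with Benjamini-Hochberg adjustment over all of them, which held 99.5% to 99.6% of each library's counts. A call is an adjusted p of at most 0.05. CPM are TMM-scaled, and TPM used exon lengths of GENCODE M21. RefSeq promoters matched by symbol. Alternatives were RLE and library-size scaling, DESeq2 1.42.0, other filters, a replicate block, leaving out each library, and mean transcript length for TPM. Fits were tested on simulated data over 10 random draws, in which the share of false calls was somewhat above the nominal level for edgeR and further above it for DESeq2, so calls close to the threshold are the least certain. Libraries of a group differed beyond sampling noise (chi-square per degree of freedom of at least 12.3). Named genes are all 10 of the set, partners past a log2 fold change of 1, the receptors and the strongest call in each direction per list, and genes outside this rule are marked as named after their values were seen. The 10 genes and the lists were chosen with earlier results of these data known.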

Additional observations from a re-analysis of the deposited data

How the results depend on the processing

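Of 120 log2 fold changes of the 10 genes under 12 alternatives, 109 kept direction and side of the threshold, 7 lost the call, 3 gained it and 1 reversed. Leaving out each library gave ranges of -1.17 to -0.39 (Tnfaip3), -0.29 to -0.13 (Tnip1), 0.37 to 0.76 (Ripk1), -0.36 to -0.28 (Traf2), 0.18 to 0.40 (Cyld), 0.04 to 0.22 (Traf3), -0.07 to 0.17 (Tradd) and, of the partners, -0.36 to 0.17 (Map2k3). The count of the 10 that fell ranged from 1 to 3, or 1 to 2 with the size threshold, and that of pathway partners that rose past it from 1 to 2. With the replicate number as a block, Traf2 was at -0.31 (adjusted p = 0.068), leaving 1 gene of the set that fell, and 4220 genes passed in place of 5277, 4177 of them shared. Of the named partners, Casp8 (adjusted p = 0.1), Traf6 (adjusted p = 0.075), Cflar (adjusted p = 0.086) and Mapk8 (adjusted p = 0.11) lost their calls with the block too. Same-numbered libraries did not deviate together (r = -0.21, -0.051 and -0.17), and no library correlated best with its own number. Deviations from the mean of so few libraries constrain each other, so this does not settle whether same-numbered libraries were handled together. Tnfrsf1a was at 0.00 with RLE, DESeq2 and no filter, at 0.01 with edgeR's own filter, and between -0.03 and 0.02 without single libraries. With the size threshold 607 genes rose and 812 fell under edgeR's filter, 767 and 941 with no filter, in place of 275 and 436, since more genes of low counts are tested there. By mean transcript length, sg-con TPM was 59.9 for Tnfaip2, 9.03 for Traf1, 14.4 for Traf2, 3.1 for Traf3, 9.73 for Ripk1, 25.4 for Cyld and 21 for Zc3h12a. In sg-kiaa1522 it was 143 for Tnfaip2, 34.7 for Tradd, 31.3 for Cyld, 15.9 for Traf1, 15.4 for Ripk1, 12 for Traf2, 8.76 for Zc3h12a, 6.11 for Tnfaip3 and 3.52 for Traf3. Where no cause is given it was not tested.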
